A study of Chlamydomonas reinhardtii with 34 samples.

Results

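Of the 17301 gene models measured in the green alga Chlamydomonas reinhardtii, 82 had transcripts in 1 of 2 strains and, relative to that level, almost none in the other. A gene model belonged here if its mean over the 17 libraries of 1 strain was at least 2 RPKM (reads scaled to the length of the gene model and the size of the library) and its mean over the 17 libraries of the other strain was under 2% of that. The rule chose 45 models in sta6 (0.26% of all models), here called sta6-only, and 37 in CC-4349 (0.214%), here called CC-4349-only. The members were thus chosen by their mean RPKM in each strain, so their strain difference is given as a description and was not tested. The tests below concern nitrogen starvation and the acetate boost within the strain that expresses the gene. The rule used the mean over all 17 libraries of that strain, the tested phases included, but not the differences between phases.

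The strains were sta6 (CC-4348), a starchless mutant, and CC-4349, the comparison strain. Both grew in HSM, a minimal salts medium, at 25 µmol photons per square metre and second, were washed into the same medium without ammonium, and received acetate after 48 h without nitrogen. Each strain gave 1 library before the wash, 1 each at 0, 0.5, 2, 4, 8, 12, 24 and 48 h without nitrogen, and 1 at each of the same 8 intervals after the boost. Time points of a phase stood in for replicates: late boost (8 to 48 h after acetate, n = 4), early boost (0.5 to 4 h, n = 3), late starvation (24 and 48 h without nitrogen plus the sample taken at the boost, n = 3), middle starvation (8 and 12 h, n = 2), early starvation (0.5 to 4 h, n = 3) and replete (pre-wash and 0 h, n = 2). P-values thus measure the spread between time points of 1 culture series, and successive samples are dependent.

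The enzyme that sta6 lacks, ADP-glucose pyrophosphorylase, makes the sugar nucleotide from which starch is built. Without nitrogen this alga stops dividing and stores carbon as starch and triacylglycerol. Laboratory strains of C. reinhardtii differ from each other in stretches of the genome besides the genes for which they are kept. A gene that is absent, one whose sequence differs too much for its reads to be placed, and one that is not transcribed all give a low value in a table of this kind and cannot be told apart here. The tables used here pair no member with a gene name or product, so the members are given by locus identifier, in which the digits after Cre are the chromosome and the number after g is the order along it. Library totals recovered from the values ranged from 5.72 to 53.9 M reads in sta6 and from 10.7 to 24.1 M in CC-4349. In sta6 depth went with phase. The replete libraries held 8.35 and 9.29 M reads and those of late starvation 22.3 to 32.5 M, so low replete values rest on fewer reads.

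The sta6-only genes had a median mean of 5.43 RPKM in sta6, against 9.64 RPKM for all models of at least 2 RPKM there, and the CC-4349-only genes had a median of 12.3 RPKM in CC-4349, against 9.83 RPKM for all such models. Of the sta6-only genes 21 had a mean under 5 RPKM and 15 a mean of at least 10 RPKM, whereas of the CC-4349-only genes 8 were under 5 RPKM and 19 at 10 RPKM or more. In the strain that hardly expressed them, 8 sta6-only genes and 1 CC-4349-only gene were listed at 0 in all 17 libraries, a difference that was not tested. Of these, 4 sta6-only genes and the CC-4349-only gene are members with few reads, described below. The median share of the expressing strain's level was 0.283% for sta6-only and 0.420% for CC-4349-only genes. Every sta6 library lay above every CC-4349 library in 38 of 45 sta6-only genes (1.03% of all models of at least 2 RPKM in sta6), and every CC-4349 library above every sta6 library in 25 of 37 CC-4349-only genes (0.857% in CC-4349), counts that the rule largely sets. The heat map of all members shows these levels library by library.

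**Figure D1:**
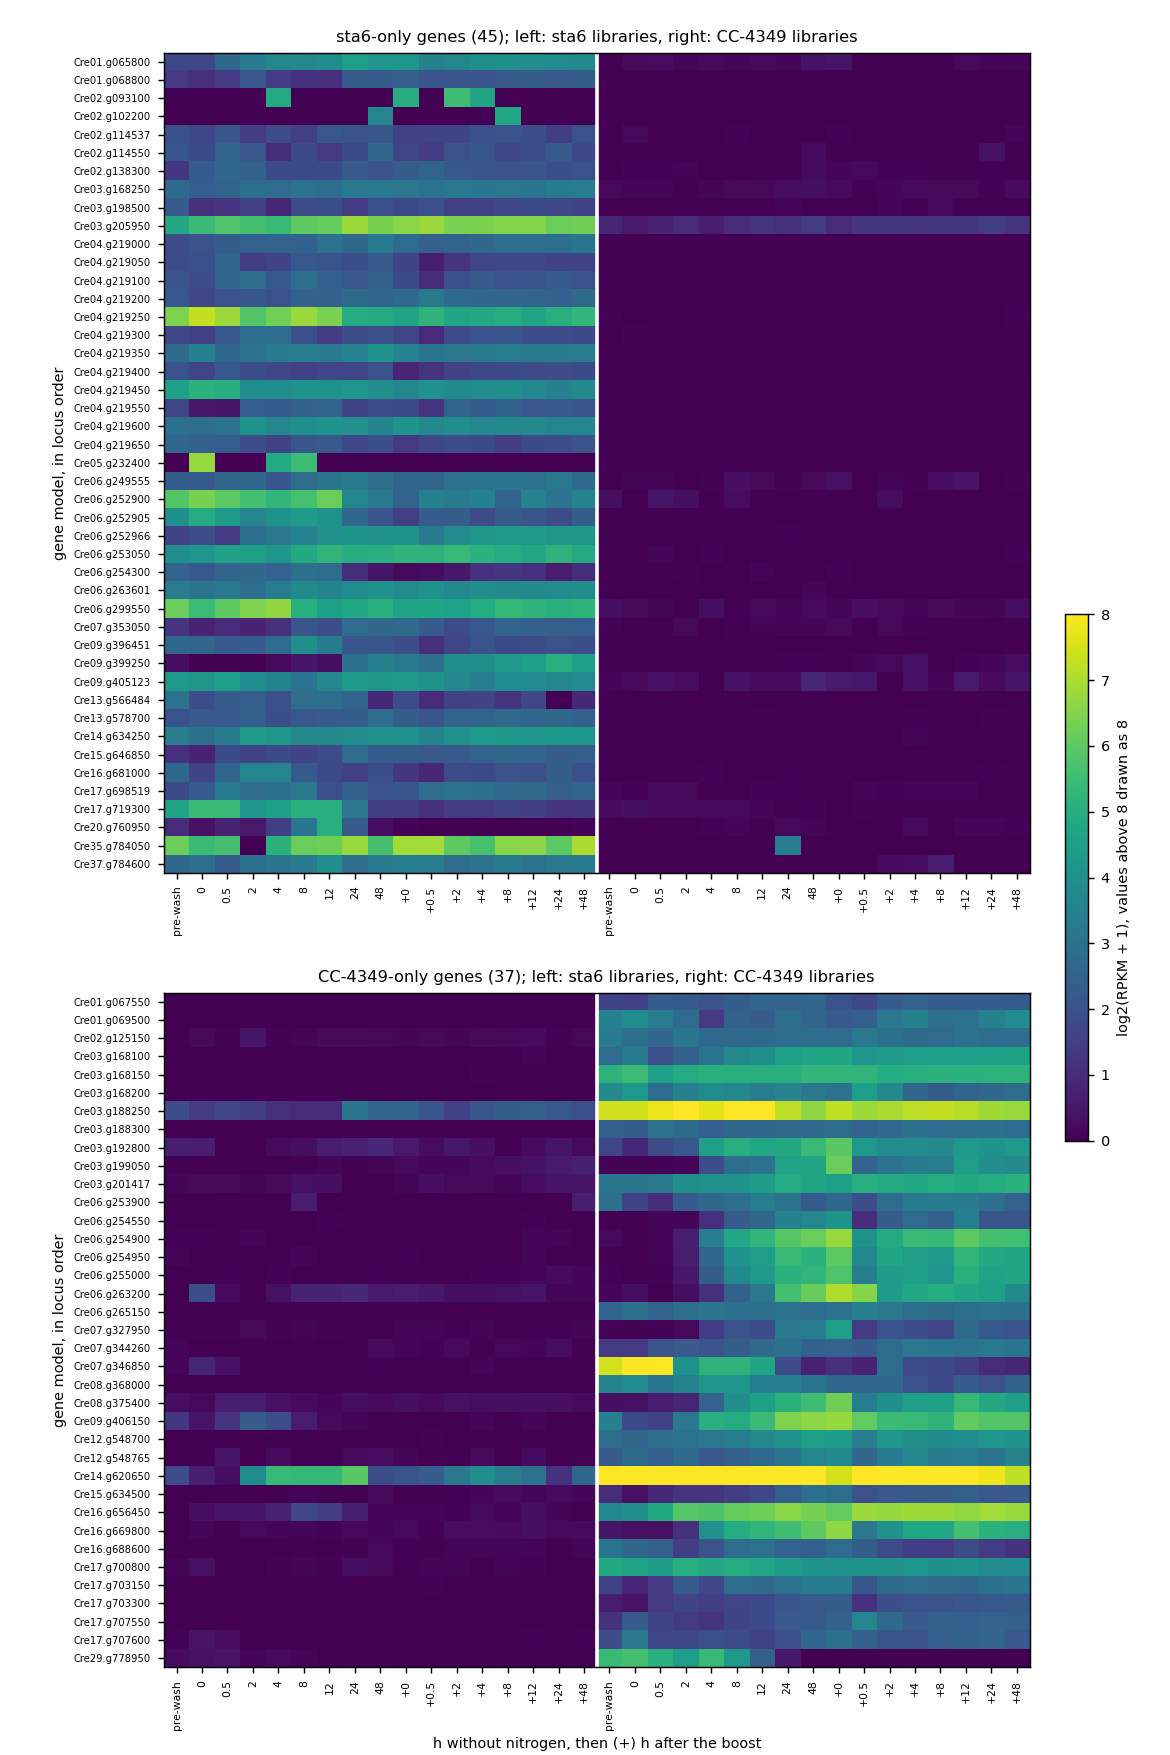
Colour gives log2(RPKM + 1) of the 45 sta6-only genes (upper panel) and the 37 CC-4349-only genes (lower panel) in every library, with the 17 sta6 libraries on the left and the 17 CC-4349 libraries on the right, each in order of sampling and not to a time scale, and values above 8 are drawn as 8. The 12 sta6-only genes of chromosome 4 form an unbroken band, and the row of Cre14.g620650 is the brightest in CC-4349 (mean 816 RPKM) with a visible signal in sta6 (mean 14.8 RPKM).

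Few reads lie behind 7 members, 5 sta6-only and 2 CC-4349-only, none of which held more than 40 reads in any library. Cre02.g093100, Cre02.g102200 and Cre05.g232400 rest on 4, 2 and 3 sta6 reads in all, and the smallest lengths that fit their values are 1 to 3 bases, so their RPKM cannot be read as an abundance. The same holds for Cre35.g784050, whose 72.1 RPKM in sta6 come from 165 reads on a fitted length of 5 bases. Cre13.g566484 had 138 reads in sta6, and Cre01.g069500 and Cre06.g253900 had 77 and 147 reads in CC-4349. Each of the other 40 sta6-only and 35 CC-4349-only genes had a library with at least 52 and 89 reads. Cre20.g760950 owes its place to 1 library, since sta6 at 12 h without nitrogen held 1292 of its 1713 reads.

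The largest neighbourhood lay on chromosome 4. Neighbourhoods were read from the order of locus numbers, joining members of 1 direction with at most 2 other gene models between them. From Cre04.g219000 to Cre04.g219650, 12 of 14 successive models were sta6-only. The other two, Cre04.g219150 and Cre04.g219500, missed only the level asked of sta6, at 1.74 and 1.55 RPKM, and no model of the 14 reached 0.2% of its sta6 mean in CC-4349 (at most 0.191%). Together the 14 models held 145114 reads in sta6 and 33 reads in CC-4349, where 11 of 17 libraries had no read in any of them and the highest had 10. On either side the level in CC-4349 was back at 33.4 to 65.6% of that in sta6, with Cre04.g218950 at 5.06 ± 1.68 RPKM in sta6 and 1.69 ± 0.460 in CC-4349 and Cre04.g219700 at 11.2 ± 2.23 RPKM in sta6 and 6.31 ± 0.964 in CC-4349 (SD, n = 17 each). All 12 members are among the 15 genes that the RefSeq table lists over this stretch.

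**Figure D2:**
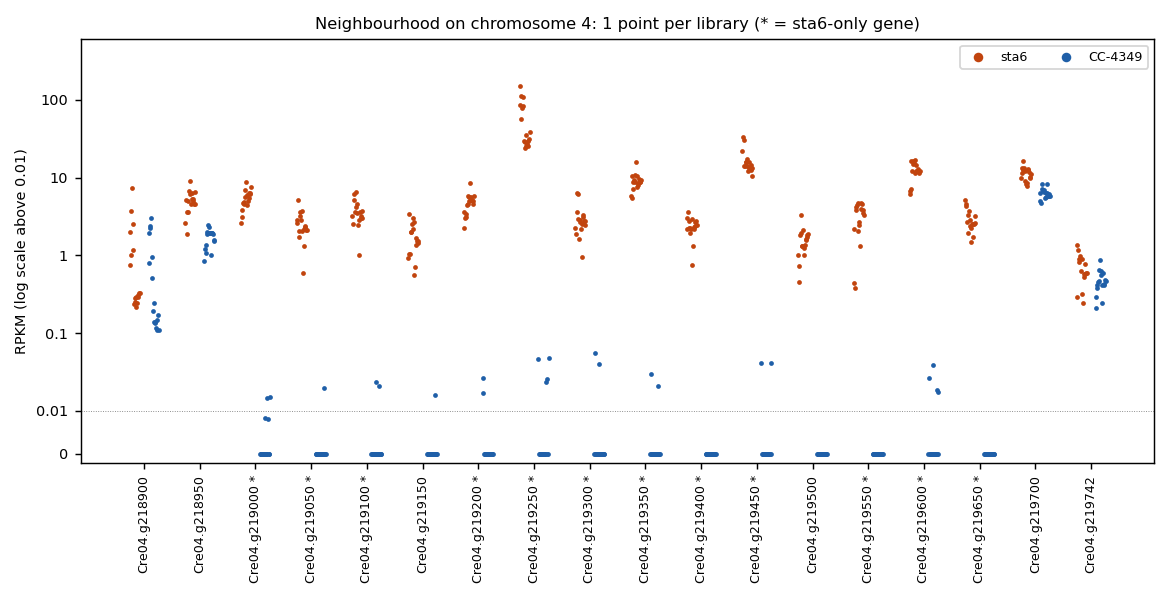
Each point is the RPKM of 1 library (log scale above 0.01, 17 sta6 libraries left of 17 CC-4349 libraries at each model) for the 14 models of the chromosome 4 neighbourhood and the 2 models on each side, and an asterisk marks the 12 sta6-only genes. CC-4349 points lie at 0 or below 0.0553 RPKM inside, and their range overlaps that of sta6 outside.

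Levels within this neighbourhood were uneven in sta6. Cre04.g219250 was the highest, with 24.3, 35.6 and 151 RPKM as lowest, median and highest sta6 library, while no CC-4349 library exceeded 0.0478 RPKM. Cre04.g219450 followed with a mean of 16.6 ± 6.28 RPKM and Cre04.g219600 with 12.4 ± 3.24 RPKM in sta6, against 0.00482 and 0.00590 RPKM in CC-4349. The next levels in sta6 were 9.05 ± 2.33 RPKM for Cre04.g219350, 5.43 ± 1.57 for Cre04.g219000 and 4.75 ± 1.45 for Cre04.g219200 (SD, n = 17 each). The 6 others, Cre04.g219050, Cre04.g219100, Cre04.g219300, Cre04.g219400, Cre04.g219550 and Cre04.g219650, had means of 2.35 to 3.68 RPKM, and their ranges over libraries overlapped. For Cre04.g219400, Cre04.g219550 and Cre04.g219650 the CC-4349 value was 0 in every library, which allows up to 0.00309, 0.00461 and 0.00819 RPKM (3 reads over the 17 libraries, counting error only).

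The other sta6-only neighbourhoods were pairs. On chromosome 6 Cre06.g252900 had 4.83, 11.01 and 81.5 RPKM as lowest, median and highest sta6 library and at most 0.401 RPKM in CC-4349. Its neighbour Cre06.g252905 had 1.83, 4.16 and 29.5 RPKM in sta6 and 0 in every CC-4349 library, and both had their highest sta6 library at 0 h without nitrogen. The model after them, Cre06.g252916, was at 15.4 RPKM in sta6 and 1.84 in CC-4349 and so outside the rule. Before them, Cre06.g252802 and Cre06.g252850 were also lower in CC-4349, at 5.65 and 30.5% of their sta6 level. Between this pair and the next, Cre06.g252930 had 0.164 RPKM in sta6 and 0 in CC-4349, and Cre06.g252950 was at 2.09% of its sta6 level in CC-4349. Further along, Cre06.g252966 and Cre06.g253050 enclosed a model that was near 0 in both strains, and had means of 12.3 ± 6.13 and 28.5 ± 7.46 RPKM in sta6 (SD, n = 17 each), against 0.0182 and 0.0135 RPKM in CC-4349. Cre02.g114537 and Cre02.g114550 on chromosome 2 were low, at 2.62 ± 0.630 and 2.85 ± 1.11 RPKM in sta6 and 0.0182 and 0.0265 in CC-4349, and the models on either side had 97.1% or more of their sta6 level in CC-4349. The remaining 27 sta6-only genes stood alone, and in all they were spread over 16 chromosomes and scaffolds.

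Among the single sta6-only genes Cre03.g205950 was the highest, with 27.5, 76.5 and 111 RPKM as lowest, median and highest sta6 library. It was also the sta6-only gene with most signal in the other strain, 1.16 ± 0.382 RPKM in CC-4349 (SD, n = 17), and the groups did not overlap. Cre06.g299550 averaged 42.8 ± 23.4 RPKM in sta6, with its highest library at 4 h without nitrogen, and 0.129 ± 0.0654 RPKM in CC-4349. Cre09.g405123, Cre14.g634250 and Cre17.g719300 averaged 14.7, 14.6 and 13.8 RPKM in sta6 and 0.271, 0.00668 and 0.0780 in CC-4349. Cre09.g405123 and Cre14.g634250 were steady, with coefficients of variation of 26.5 and 26.0% over the sta6 libraries, while that of Cre17.g719300 was 112%.

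The CC-4349-only genes include the locus by which the strain labels can be checked. Cre03.g188250, known from work on this mutant as the gene of the small subunit of ADP-glucose pyrophosphorylase, had 0.957, 2.87 and 7.45 RPKM as lowest, median and highest sta6 library, against 100, 148 and 304 RPKM in CC-4349. At 1.83% it is 1 of the 3 members nearest the limit of the rule, and its residual sta6 signal comprised 3732 reads. Its neighbour Cre03.g188300 was far closer to silence, with 2 reads in all 17 sta6 libraries, or 0.00123 RPKM, against 5.63 ± 0.855 RPKM in CC-4349 (SD, n = 17). The model before the pair with any reads, Cre03.g188200, had 5.003 ± 1.51 RPKM in sta6 and 5.18 ± 1.75 in CC-4349. On the other side Cre03.g188400 was lower in sta6, at 1.71 ± 0.797 RPKM in sta6 and 13.2 ± 5.05 in CC-4349 (SD, n = 17 each), without meeting the rule.

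A run of 3 CC-4349-only genes on chromosome 3 was joined to a gene of the opposite direction. Cre03.g168100, Cre03.g168150 and Cre03.g168200 together held 51 reads in sta6 and 57026 in CC-4349. Cre03.g168150 was the highest and steadiest of them, with 0.00608 RPKM in sta6 and 22.7, 33.6 and 44.2 RPKM as lowest, median and highest CC-4349 library. Cre03.g168100 averaged 0.00456 RPKM in sta6 and 16.1 ± 7.55 in CC-4349, and Cre03.g168200 0.0141 RPKM in sta6 and 9.81 ± 4.79 in CC-4349 (SD, n = 17). The next model by locus number, Cre03.g168250, was sta6-only, with 7.28 ± 1.48 RPKM in sta6 and 0.128 ± 0.0525 in CC-4349. The model after that, Cre03.g168300, was expressed in both strains, at 12.6 ± 3.40 RPKM in sta6 and 11.3 ± 3.26 in CC-4349. It is the only place where members of opposite directions stood within 2 models of each other.

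On chromosome 6 Cre06.g254900, Cre06.g254950 and Cre06.g255000 formed the other run of 3. Their CC-4349 means were 35.3 ± 30.2, 20.4 ± 17.1 and 18.3 ± 15.4 RPKM (SD, n = 17), and those in sta6 were 0.0230, 0.0288 and 0.0478 RPKM. The groups overlapped in all 3, because CC-4349 itself had at most 0.592 RPKM of them up to 2 h without nitrogen. On both sides the strains had like levels, with Cre06.g254850 at 2.94 RPKM in sta6 and 3.58 in CC-4349 and Cre06.g255050 at 14.5 RPKM in sta6 and 10.01 in CC-4349.

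**Figure D3:**
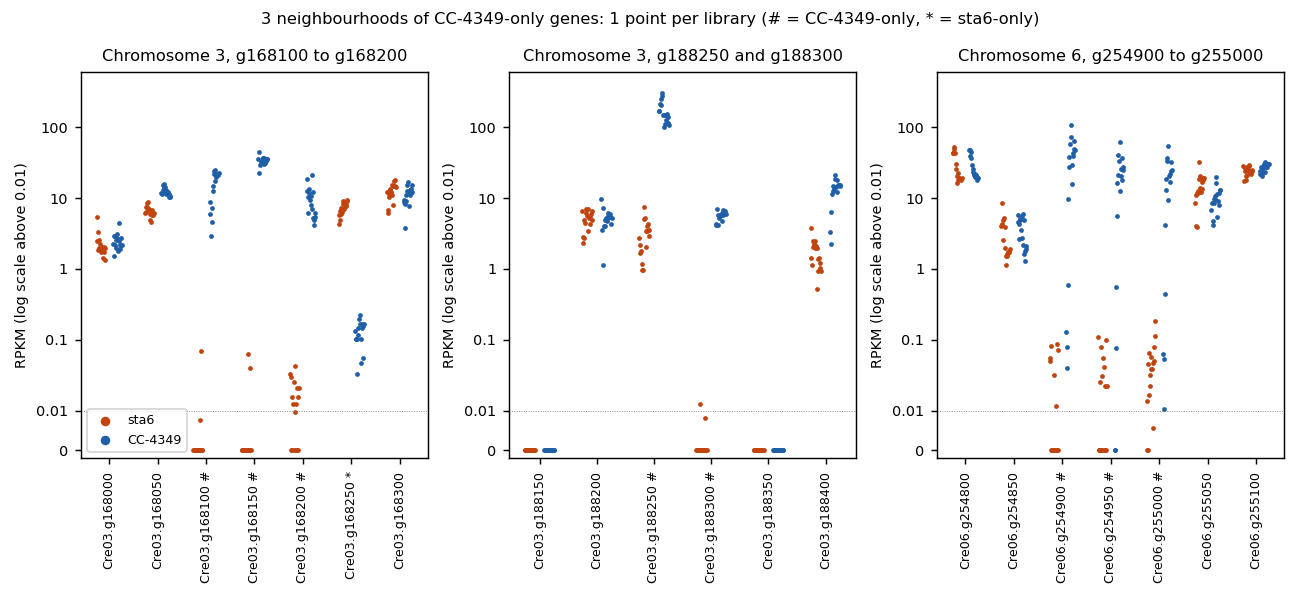
Each point is the RPKM of 1 library (log scale above 0.01, 17 sta6 libraries left of 17 CC-4349 libraries at each model) in 3 neighbourhoods of CC-4349-only genes (#) with the 2 models on each side. Cre03.g168250 (*) shows the opposite pattern to the 3 genes before it, and the points of Cre06.g254900 to Cre06.g255000 in CC-4349 spread from below 0.1 RPKM up to 109 RPKM.

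The remaining CC-4349-only neighbourhoods were pairs on chromosomes 12 and 17. Cre12.g548700 and Cre12.g548765 had 0.00589 and 0.0777 RPKM in sta6 and 12.5 ± 5.004 and 7.51 ± 3.01 in CC-4349. Between Cre17.g703150 and Cre17.g703300, which had 2 reads each in sta6, lay 2 models that sta6 expressed at 33.0 and 23.7% of the CC-4349 level. Models up to 2 places outside this pair were at 13.2 to 33.7% where they had reads, so the whole stretch was lower in sta6. Cre17.g707550 and Cre17.g707600 had 0.00639 and 0.0479 RPKM in sta6 and 3.86 ± 2.43 and 3.87 ± 1.67 in CC-4349 (SD, n = 17 each). The other 23 CC-4349-only genes stood alone.

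The 4 highest CC-4349-only genes besides Cre03.g188250 stood alone. Cre14.g620650 had 0.244, 7.04 and 59.6 RPKM as lowest, median and highest sta6 library, against 151, 584 and 2302 RPKM in CC-4349. It was low in sta6 relative to CC-4349 without being silent. Its sta6 mean of 14.8 RPKM lay above 9.64 RPKM, the median of all models of at least 2 RPKM there. Cre16.g656450 averaged 0.423 ± 0.631 RPKM in sta6 and 77.9 ± 35.3 in CC-4349, Cre09.g406150 0.639 ± 1.14 and 45.8 ± 31.6 RPKM, and Cre07.g346850 0.0818 ± 0.197 and 51.0 ± 96.4 RPKM in the same order (SD, n = 17 each). The sta6 level of Cre09.g406150 was not even over time. At 0.5 and 2 h without nitrogen it was 1.35 and 3.98 RPKM, against 1.96 and 7.94 RPKM for CC-4349. Before the wash and at 0 and 4 h it was 1.44, 0.370 and 2.73 RPKM, against 10.1, 2.46 and 32.3 RPKM for CC-4349. The 2% limit of the rule was thus met by the means over all libraries and not at these times. From 24 h on the sta6 level was at most 0.0963 RPKM, when CC-4349 was at its highest. Cre03.g201417, Cre06.g263200 and Cre16.g669800 averaged 0.165, 0.488 and 0.119 RPKM in sta6 and 22.1, 29.0 and 28.4 in CC-4349. The highest sta6 library of Cre06.g263200 was that at 0 h without nitrogen. It had 2.78 RPKM there (38 reads), against 0.232 RPKM (4 reads) for CC-4349, so the direction was reversed at that time.

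More members lay on chromosome 6 than on any other chromosome, with 8 sta6-only and 7 CC-4349-only genes. Chromosome 6 held 1363 of the 17301 models, and the count of members was not tested against this. Of these, 6 and 5 lay among the 124 models from Cre06.g249555 to Cre06.g255000, an interval whose ends were set at members. In the same interval 71 models had a mean of at least 2 RPKM in both strains, and 64 of them were within 2-fold of each other. The members were not evenly scattered among these. Every successive model from Cre06.g252802 to Cre06.g253050, a stretch that holds both sta6-only pairs, was at 30.5% of its sta6 level or less in CC-4349. The next model, Cre06.g253074, was at 119%. Cre06.g254900 to Cre06.g255000 formed the run of CC-4349-only genes described above. Chromosome 6 of this alga carries the mating-type locus, and the labels do not give the mating types of the strains. In all, 10 chromosomes held members of both directions. A locus tag in the RefSeq table existed for 26 of 45 sta6-only genes (57.8%) and 24 of 37 CC-4349-only genes (64.9%), against 12666 of 17301 models (73.2%).

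The limit of the rule cut through a continuous range. Just inside were Cre20.g760950, Cre06.g249555 and Cre09.g405123, at 1.79, 1.80 and 1.85% of the sta6 level, and Cre15.g634500, Cre03.g188250 and Cre02.g125150, at 1.82, 1.83 and 1.94% of the CC-4349 level. Just outside were Cre06.g252950, Cre12.g533100 and Cre10.g463370, at 2.09, 2.17 and 2.25%, and Cre18.g745150, Cre15.g634351 and Cre10.g463350, at 2.08, 2.09 and 2.35%. Cre06.g252950 is the model next to Cre06.g252966 on chromosome 6, with 9.18 RPKM in sta6 and 0.192 in CC-4349.

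For the response to starvation, late starvation was set against replete cells, within sta6 for the sta6-only and within CC-4349 for the CC-4349-only genes. limma was fitted to log2(RPKM + 1) over all models averaging 1 RPKM or more there, and a change was called at a Benjamini-Hochberg adjusted p under 0.05 and at least 2-fold. Differences below are on that log2 scale, which understates changes at low levels. The median over all models tested was 0.22 in sta6 and 0.30 in CC-4349.

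The sta6-only genes responded to starvation about as often as other genes of that strain. Of 45, 8 rose (17.8%), against 18.1% of 14382 models tested, and 5 fell (11.1%), against 13.2%, so 13 changed (28.9%), against 31.4%. Their median difference was 0.36, and 0.29 without the 5 members with few reads. The count depended on the scaling of the libraries: with median-of-ratios scaling, which brought the median of all models to 0.01, 6 rose (13.3%), against 13.7% of models, and 8 fell (17.8%), against 16.6%. Leaving out each library in turn gave 13 to 16 calls.

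The largest rise among them was that of Cre09.g399250. It had 6.53, 10.4 and 8.43 RPKM in the late starvation libraries of sta6, against 0.224 and 0 RPKM in the replete ones, a difference of 3.07 (SE 0.307, limma adjusted p = 3.6e-06). In the libraries from 0 to 12 h it never exceeded 0.412 RPKM, so it appeared between 12 and 24 h without nitrogen. Cre01.g065800 had 21.7, 17.3 and 17.7 RPKM in late starvation, against 2.30 and 2.27 RPKM in replete cells (difference 2.59, SE 0.235, limma adjusted p = 1.7e-06). From 0.5 to 12 h it lay between its replete and late starvation levels. Cre06.g252966 had 16.7, 15.4 and 16.0 RPKM in late starvation and 2.12 and 2.69 RPKM in replete cells (difference 2.33, SE 0.392, limma adjusted p = 0.00023).

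Of the other sta6-only risers, Cre07.g353050 averaged 5.62 ± 0.345 RPKM in late starvation (SD, n = 3) and 1.05 ± 0.446 RPKM in replete cells (SD, n = 2), and Cre15.g646850 4.74 ± 1.22 and 0.926 ± 0.313 RPKM in the same order. Cre03.g205950, the highest sta6-only gene, averaged 94.8 ± 14.5 RPKM in late starvation and 35.1 ± 10.8 RPKM in replete cells. Cre01.g068800 and Cre04.g219600 rose by 1.14 and 1.04 on the log2(RPKM + 1) scale, just past the size asked for a call. Both missed it with median-of-ratios scaling, at 0.98 and 0.82. The risers did not share an onset. They first reached 50% of their late starvation mean after 0.5 h in 2 genes, after 2 h in 2, after 4 h in 2, after 8 h in 1 and after 24 h in 1.

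In each of the 5 sta6-only genes that fell, every library up to 12 h without nitrogen lay above every library from 24 h on. Cre17.g719300 had 8.08, 1.83 and 1.76 RPKM in late starvation, against 24.4 and 41.8 RPKM in replete cells, and was still at 32.0 RPKM at 12 h (difference -2.99, SE 0.437, limma adjusted p = 7e-05). The chromosome 6 pair fell together. Cre06.g252900 had 12.2, 9.05 and 4.89 RPKM in late starvation, against 56.5 and 81.5 RPKM in replete cells (difference -2.90, SE 0.359, limma adjusted p = 1.9e-05), and 72.4 RPKM at 12 h. Cre06.g252905 had 5.33, 3.31 and 1.83 RPKM in late starvation, against 15.02 and 29.5 RPKM in replete cells (difference -2.38, SE 0.338). Cre06.g254300 averaged 0.523 ± 0.473 RPKM in late starvation (SD, n = 3) and 4.15 ± 0.722 RPKM in replete cells (SD, n = 2), with 5.98 RPKM at 12 h.

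In the chromosome 4 neighbourhood neighbours moved differently. Cre04.g219250 was the other gene that fell, with 30.0, 28.8 and 24.3 RPKM in late starvation, against 86.9 and 151 RPKM in replete cells (difference -2.02, SE 0.292, limma adjusted p = 6.6e-05). Cre04.g219600, 7 models further on, had 15.5, 11.3 and 16.7 RPKM in late starvation, against 6.68 and 6.20 RPKM in replete cells (difference 1.04, SE 0.249, limma adjusted p = 0.003). The 10 other members there passed the threshold in neither direction. None of the 12 was called after the boost, where their differences lay between -0.75 and 0.25 in the early boost and between -0.38 and 0.50 in the late boost.

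Many CC-4349-only genes were called higher on starvation, a count that the choice of members partly sets. Of 37, 20 rose (54.1%), against 20.4% of 14354 models tested, and 2 fell (5.41%), against 9.19%, so 22 changed (59.5%), against 29.6%. Their median difference was 1.28, against 0.30 over all models. The genes that rose include 10 with less than 1 RPKM in both replete libraries, for which membership rests on the libraries under starvation and boost. Without members and models of that kind 10 of 27 rose (37.0%), against 17.3% of 13559 models. The share of members is therefore given as a description, and no support is read from it. Leaving out each library in turn gave 21 to 23 calls. With median-of-ratios scaling 19 rose (51.4%), against 13.49% of models, and 4 fell (10.8%), against 13.96%. With a pseudocount of 5, 16 rose (43.2%), against 9.22% of models, and the calls of Cre07.g344260, Cre12.g548765, Cre15.g634500 and Cre17.g703300 were lost.

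The rises of 11 of these genes were 3 or more on the log2 scale. Cre06.g254900 had 58.2, 72.8 and 109 RPKM in the late starvation libraries of CC-4349, against 0.129 and 0.0398 RPKM in the replete ones (difference 6.17, SE 0.677, limma adjusted p = 4.8e-06). Cre06.g263200 had 46.3, 69.2 and 131 RPKM in late starvation, against 0.0752 and 0.232 RPKM in replete cells (difference 6.05, SE 0.563, limma adjusted p = 1.2e-06). Cre16.g669800 had 45.4, 63.7 and 98.8 RPKM, against 0.389 and 0.284 RPKM (difference 5.65, SE 0.752, limma adjusted p = 2.6e-05). In each of these the late libraries increased from 24 h to 48 h and again to 0 h after the boost.

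The neighbours of Cre06.g254900 rose with it. Cre06.g255000 had 33.4, 36.5 and 54.4 RPKM in late starvation, against 0.0628 and 0.0108 RPKM in replete cells (difference 5.32, SE 0.518, limma adjusted p = 1.7e-06). Cre06.g254950 had 41.1, 33.5 and 62.6 RPKM in late starvation and was listed at 0 in both replete libraries, so its mean of 45.7 RPKM was at least 500.4-fold higher than the 0.0914 RPKM that 3 reads over the replete group would give. Cre06.g254550, a single gene of the same chromosome, was likewise at 0 in both replete libraries and had 10.3, 11.9 and 16.8 RPKM in late starvation, at least 159-fold higher on the same basis. Both bounds lie above the median difference of the 37 genes, which is 1.28 with them as without. Whether near-identical copies share reads among these genes was not tested.

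The other large risers were Cre08.g375400, Cre03.g199050, Cre03.g192800, Cre09.g406150 and Cre07.g327950. Cre08.g375400 averaged 51.6 ± 21.8 RPKM in late starvation (SD, n = 3) and 0.273 ± 0.0312 RPKM in replete cells (SD, n = 2), and Cre03.g199050 39.6 ± 26.8 and 0.0474 ± 0.000961 RPKM in the same order. Cre03.g192800 averaged 43.8 ± 16.9 and 1.51 ± 0.946 RPKM, Cre09.g406150 96.5 ± 9.97 and 6.30 ± 5.44 RPKM, and Cre07.g327950 12.8 ± 6.86 and 0.0554 ± 0.00382 RPKM. No late starvation library of any of these 5 genes fell into its replete range. In all 11 the highest CC-4349 library was the one taken at the boost, as it was in 14 of the 37 CC-4349-only genes (37.8%), against 8.83% of models of at least 2 RPKM in CC-4349.

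**Figure D4:**
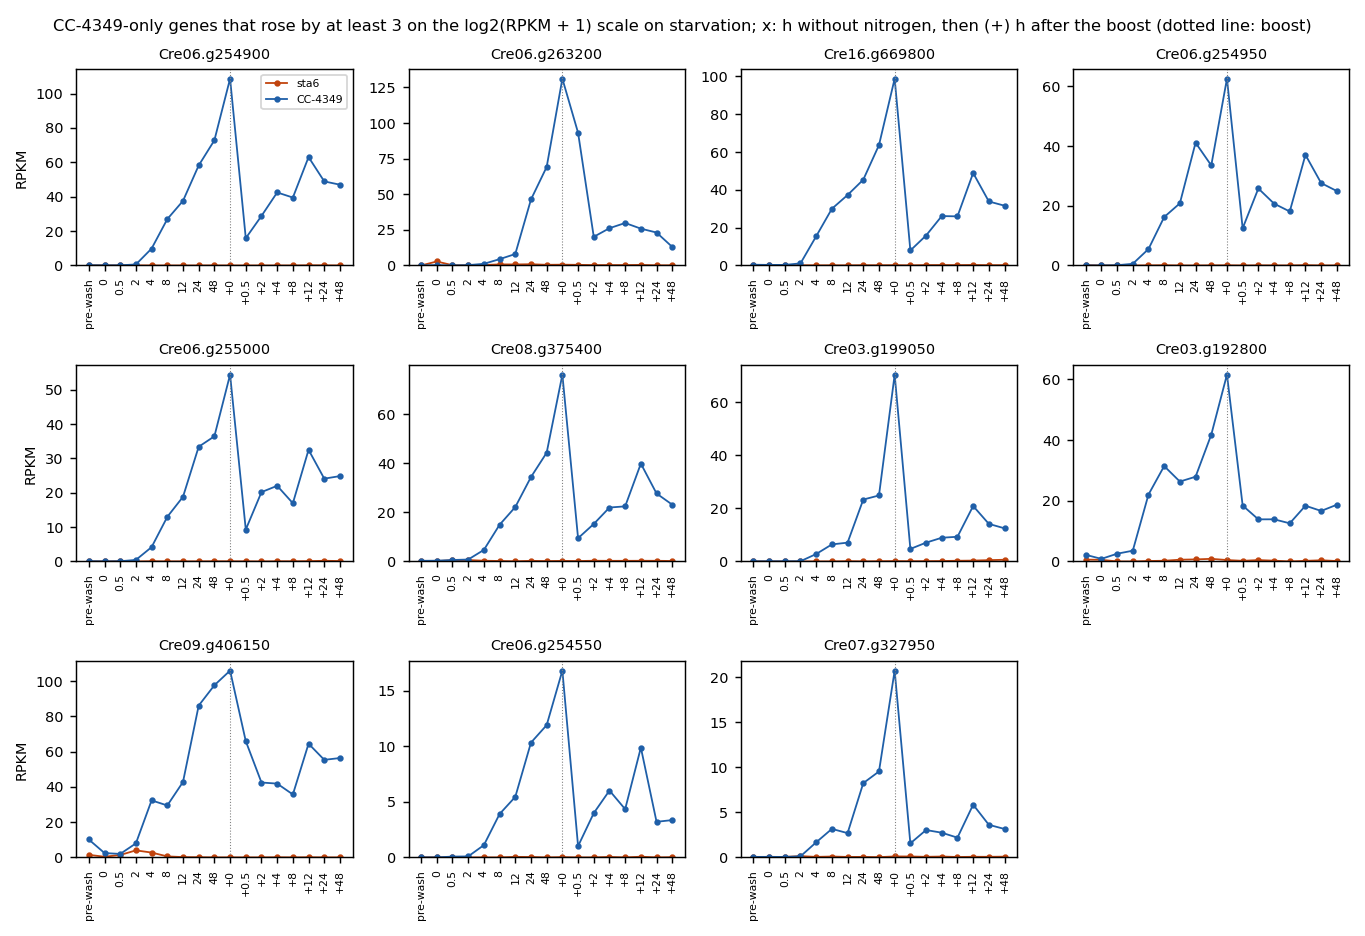
RPKM in every library, in order of sampling and not to a time scale, of the 11 CC-4349-only genes that rose by at least 3 on the log2(RPKM + 1) scale. In CC-4349 the highest library is the one taken at the boost (131 RPKM for Cre06.g263200, 20.7 RPKM for Cre07.g327950), while no sta6 library passed 3.98 RPKM.

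The risers differed in onset. Of the 20, 10 first reached 50% of their late starvation mean after 24 h without nitrogen, 2 after 12 h, 2 after 8 h, 1 after 4 h, 4 after 2 h and 1 after 0.5 h. Cre16.g656450 was an early one, with 58.7 RPKM at 2 h, against 12.2 and 14.2 RPKM in replete cells, and it had 95.5, 81.0 and 66.6 RPKM in late starvation (difference 2.52, SE 0.251, limma adjusted p = 2e-06). Cre03.g201417 averaged 25.7 ± 3.64 RPKM in late starvation (SD, n = 3) and 7.63 ± 0.251 RPKM in replete cells (SD, n = 2). In the chromosome 3 run only Cre03.g168100 rose, to 23.7 ± 1.62 RPKM in late starvation, against 7.40 ± 2.10 RPKM in replete cells. Both members of each of the pairs from Cre12.g548700 and from Cre17.g703150 rose, by 1.01 to 1.96. The call of Cre12.g548765 was lost with a pseudocount of 5, with median-of-ratios scaling and with the boost sample moved, at 0.68, 0.69 and 0.88. That of Cre17.g703300 was lost with a pseudocount of 5, at 0.70.

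The 2 CC-4349-only genes that fell were nearly shut off. Cre07.g346850 had 2.61, 0.658 and 1.13 RPKM in late starvation, against 174 and 258 RPKM in replete cells (difference -6.51, SE 0.855, limma adjusted p = 2.3e-05). It was highest at 0.5 h, with 305 RPKM, and had 15.7 to 34.8 RPKM from 2 to 12 h. Cre29.g778950 had 0.440, 0.0354 and 0.0113 RPKM in late starvation, against 42.2 and 49.1 RPKM in replete cells (difference -5.34, SE 0.376, limma adjusted p = 1.3e-07), and it declined later, with 41.3, 18.1 and 4.43 RPKM at 4, 8 and 12 h. Neither returned after the boost, when Cre07.g346850 had at most 6.11 RPKM and Cre29.g778950 at most 0.0346 RPKM. The label-check gene Cre03.g188250 was not called in CC-4349.

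The acetate boost was compared with late starvation. There was no parallel culture left without acetate, so acetate and elapsed time cannot be told apart. In sta6 none of the 45 sta6-only genes was called by limma in the early boost, where 0.111% of all models were called higher, 0.327% lower and 0.438% in all, and 6 had an unadjusted p under 0.05. In the late boost 1 rose, Cre09.g399250, against 0.139% of all models higher, 0.0973% lower and 0.236% in all. It had 19.2, 21.7, 33.0 and 22.1 RPKM at 8, 12, 24 and 48 h after acetate, against 6.53, 10.4 and 8.43 RPKM in late starvation (difference 1.40, SE 0.257, limma adjusted p = 0.034). The call was lost when any 1 of the 2 middle starvation, 3 late starvation or 4 late boost libraries was left out (limma adjusted p = 0.0516 to 0.145), while the difference stayed between 1.24 and 1.54.

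In CC-4349 few changes after the boost passed the test. Of the 20 genes that had risen on starvation, 17 had a negative difference in the early boost and 17 in the late boost, with medians of -0.98 and -0.69. These genes were picked for high late starvation values, which both differences subtract, and over all 2930 CC-4349 models that rose on starvation the medians were -0.19 and -0.04. In the early boost 2 of the 37 fell, against 0.571% of all models lower, 0.139% higher and 0.711% in all. Cre03.g199050 had 4.72, 7.09 and 8.93 RPKM at 0.5, 2 and 4 h after acetate, against 23.3, 24.9 and 70.5 RPKM in late starvation (difference -2.21, SE 0.468, limma adjusted p = 0.043). Cre07.g327950 had 1.56, 3.04 and 2.74 RPKM, against 8.24, 9.53 and 20.7 RPKM (difference -1.93, SE 0.374, limma adjusted p = 0.029). The library taken at the boost is the highest in both. Without it the differences were -1.70 (limma adjusted p = 0.18) and -1.55 (limma adjusted p = 0.15), and with it counted as early boost they were -0.90 and -0.87. Both calls were also lost without the library at 48 h without nitrogen or at 0.5 or 2 h after acetate, and that of Cre03.g199050 without any 1 of the middle starvation and late boost libraries (limma adjusted p of up to 0.145 for both genes). In the late boost limma called 0 of the 37, against 0.167% of all models higher, 0.174% lower and 0.341% in all, with 10 at an unadjusted p under 0.05 and the lowest adjusted p at 0.054. In the fit over all 34 libraries 4 were called in that comparison, all lower (10.8%), against 0.348% of models. That fit includes the sta6 libraries, where the rule makes the members near 0 and so shrinks their spread. No support is read from its count.

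**Figure D5:**
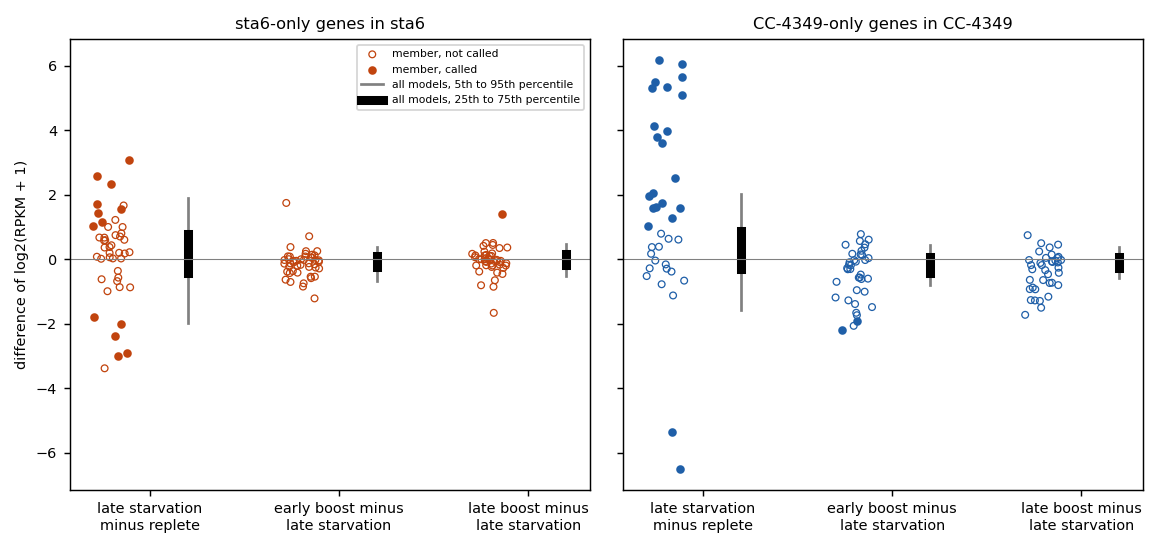
Differences of log2(RPKM + 1) between phases for the 45 sta6-only genes in sta6 (left) and the 37 CC-4349-only genes in CC-4349 (right), with filled points for members called by limma and bars for the interquartile range (thick) and the 5th to 95th percentile (thin) of all models tested in that strain. On starvation the CC-4349-only points reach 6.17 and the sta6-only points 3.07, and after the boost 1 sta6-only and 2 CC-4349-only points are filled.

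The step from 0 to 0.5 h after acetate was looked at after the time courses of the CC-4349-only risers had been seen. In 14 of the 37 genes, all of them among the 20 that rose on starvation, the level at 0.5 h was under 50% of that at 0 h after the boost (37.8%), against 24.9% of the models of at least 2 RPKM in CC-4349. Among the 11 large risers 9 were under that limit (81.8%), and the share that was left ranged from 6.02 to 71.0%. The 0 h library is part of the late starvation mean that made them risers and is the highest in all 11, so the choice favours a drop. Of the 64 CC-4349 models that rose by at least 3 and had their highest library at 0 h, the members included, 57.8% were under the limit. Cre06.g254550 had 1.01 RPKM at 0.5 h, against 16.8 RPKM at 0 h, and Cre16.g669800 had 7.92 RPKM, against 98.8 RPKM. Cre06.g263200 kept 93.2 RPKM at 0.5 h, against 131 RPKM at 0 h, and had 20.1 RPKM at 2 h. In 9 of the 11 the highest late boost library was that at 12 h, against 20.3% of models. In all 11 each late boost library still lay above both replete libraries. The same step in sta6 took 7 of 43 sta6-only genes under 50% (16.3%), against 10.7% of models. Each of these steps compares single libraries and has no replicate.

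Traces in the low strain were followed where a member passed the filter there. Cre03.g188250 rose in sta6 on starvation, with 7.45, 5.08 and 5.16 RPKM in late starvation, against 2.74 and 1.68 RPKM in replete cells (difference 1.10, SE 0.242, limma adjusted p = 0.0017). In CC-4349 it had 148, 100 and 148 RPKM in late starvation and 170 in both replete libraries. Cre14.g620650 in sta6 had 59.6, 2.55 and 3.25 RPKM in late starvation, against 2.65 and 0.578 RPKM in replete cells (difference 2.02, SE 1.27, limma adjusted p = 0.20). The library at 24 h held nearly all of its late signal. That library followed 40.7, 39.3 and 39.2 RPKM in sta6 at 4, 8 and 12 h, when CC-4349 had 1063, 1799 and 2302 RPKM. In CC-4349 the level also fell, from 1525 RPKM at 24 h to 466 RPKM at 48 h. Cre03.g205950 in CC-4349 averaged 1.26 RPKM in late starvation and 0.615 RPKM in replete cells, a difference of 0.48 on the log2(RPKM + 1) scale (SE 0.177, limma adjusted p = 0.035) and so not called. Below the filter, Cre29.g778950 had 0.0787 to 0.334 RPKM in sta6 up to 8 h without nitrogen and at most 0.0383 RPKM afterwards, the course it also took in CC-4349. Cre17.g719300, sta6-only, had 0.0836 to 0.257 RPKM in CC-4349 up to 12 h and at most 0.0447 RPKM afterwards, again the course of the expressing strain.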

How the data were processed

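RNA was sequenced from 34 samples, 1 library per strain and time point. The deposited table holds 1 value per gene model and library. The file does not name the unit: the values behave as RPKM made by the authors, since the low values of a gene are whole multiples of a step set by its length and the library total, in 100% of the values checked (within 0.05 reads, 8040 models). Bowtie is named, without a version, per the submitters' processing notes. For genome build, annotation release, counting rule and strand: not given in the sources used here. The column for sta6 at 24 h after the boost ends in other letters than its label and was matched by strain, stage and time.

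From these values library totals, model lengths and read numbers were recovered, and the intervals and floors drawn from them cover counting error only. Members and lists were chosen with earlier results of these data known. Differences between phases were tested with limma 3.58.1 (R 4.3.3; empirical Bayes with trend) on log2(RPKM + 1), separately in the 17 libraries of each strain in 6 phases, with Benjamini-Hochberg adjustment over all models averaging 1 RPKM or more. The script was checked on simulated data. Tables were made with Python 3.11.15, numpy 2.4.6 and pandas 2.3.3. Genes are named if they are among the 10 highest of a direction, in its 3 largest neighbourhoods, among the 5 largest called rises or falls of a test, or among the 3 nearest the 2% limit on either side; others were named after their values were seen. Alternatives were pseudocounts of 0.1 and 5, median-of-ratios scaling, no filter, 1 fit on all 34 libraries, another phase for the sample taken at the boost, other limits of the rule, and leaving out each library. The RefSeq table (assembly Chlamydomonas_reinhardtii_v5.5) was used only to look up locus tags.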

Additional observations from a re-analysis of the deposited data

Results flagged for a closer look

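In 80 groups of 4 late boost libraries, 5 held a library set apart from the other 3 by Dixon's 95% limit, where chance gives about 1 in 20. Cre04.g219000 had 7.58 RPKM in sta6 at 48 h after the boost, against 6.19 to 6.41 RPKM in the others. Cre16.g681000 had 4.11 RPKM in sta6 at 24 h, against 2.90 to 2.95 RPKM. Cre06.g254550 had 9.88 RPKM in CC-4349 at 12 h, against 3.20 to 4.34 RPKM. The remaining 2 rest on few reads there: Cre02.g102200 had 26.5 RPKM in sta6 at 8 h, which is 1 read, and Cre20.g760950 0.0637 RPKM in sta6 at 48 h, with 0 in the other libraries of both.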

How the results depend on the processing

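The starvation counts stood within 1.5 times of 13 sta6-only and 22 CC-4349-only genes under each alternative on all members but 1: with a pseudocount of 5, 8 sta6-only genes were called. Without each library in turn they were 13 to 16 and 21 to 23. The boost counts were less stable. The 1 sta6-only call of the late boost became 0 with a pseudocount of 0.1, with no filter on low values and with the sample taken at the boost counted as early boost, and was 0 to 1 without each library in turn; the adjusted p of Cre09.g399250 reached 0.265. The 2 CC-4349-only calls of the early boost became 0 with a pseudocount of 0.1, 5 with a pseudocount of 5, 1 with median-of-ratios scaling, 5 in 1 fit on all 34 libraries and 0 with the sample taken at the boost moved, and were 0 to 6 without each library in turn. The 0 calls of the late boost became 4 in 1 fit on all 34 libraries and 0 to 2 without each library in turn. Counts from the fit on all 34 libraries are favoured by the rule, since near-0 values in the other strain shrink the members' spread. The rule chose 22 CC-4349-only genes at a share under 1%, 68 sta6-only and 66 CC-4349-only genes at under 5%, and 24 sta6-only genes at a mean of at least 5 RPKM. Leaving out the members with few reads, an alternative chosen after seeing the data, changed no count of calls. Without the members that had under 1 RPKM in both replete libraries, likewise chosen after seeing the data, 12 sta6-only and 12 CC-4349-only genes were called on starvation. None of these changes in count was traced to a cause: the cause was not tested. Of 460 alternative values of single named genes, 426 stayed on the same side of the threshold and 34 were no longer past it. No value reversed. No paired analysis was possible because each test compares phases within 1 strain, whose time points share no replicate number (the numbers follow accession order), and the strain difference, where time points could pair, was used by the rule and not tested.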
